A study of Mus musculus with 6 samples.

Results

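The 9 genes of the neurotrophin and glial cell line-derived neurotrophic factor (GDNF) families followed here in colon RNA are the ligands Bdnf, Ntf3, Gdnf, Nrtn and Artn and the receptors Gfra1, Ntrk2, Ntrk3 and Ngfr. They were taken by gene symbol from a table of 18477 genes, and all 9 were listed. Of these, 8 had enough reads to be tested and 1, Bdnf, did not. The colon came from male C57BL/6 mice, 6 to 8 weeks old at purchase, which all received 2% dextran sulfate sodium (DSS), which damages the lining of the colon, in drinking water for the last 7 of 14 days. Throughout the 14 days, the DSS group (n = 3) was gavaged daily with PBS and the *B. vulgatus* group (DSS+BV, n = 3) with *Bacteroides vulgatus*, a common gut bacterium, from a type-collection strain. No mouse without DSS was analysed here, so the values compare both treatments within colitis and say nothing of healthy colon.

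Neurotrophins are secreted proteins that keep neurons alive and shape their connections. Each binds a Trk receptor tyrosine kinase, BDNF to TrkB (Ntrk2) and NT-3 (Ntf3) to TrkC (Ntrk3), while the receptor Ngfr binds all of them. GDNF, neurturin (Nrtn) and artemin (Artn) bind GPI-anchored co-receptors of the GFRα group and signal through the kinase Ret. In the gut, GDNF acting through Gfra1 and Ret is needed for neural crest cells to colonise the bowel and form the enteric nervous system. Enteric neurons and glia carry these receptors in the adult, and cells of the gut wall supply ligands.

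Library totals lay between 15293276 and 17254343 expected counts. Levels are given as CPM, which scales a gene's count to the library total after TMM adjustment. Epcam, an epithelial surface protein, was between 1264 and 1749 CPM in the 6 libraries. The libraries did not fall apart by treatment alone. DSS 1, DSS 3 and DSS+BV 1 held many B cell transcripts, with a summed level of 8 B cell and follicular dendritic cell genes between 338 and 741 CPM. In DSS 2, DSS+BV 2 and DSS+BV 3 the sum lay between 38.1 and 67.2 CPM. The transcription factor Cdx2, which specifies intestinal epithelium, ran the other way, at 42.2, 39.9 and 60.5 CPM in the first set and at 176, 192 and 327 CPM in the second. No library was a copy of another of its group (chi-square per degree of freedom between replicates from 43.7 to 125). In whole tissue, fewer cells of a type and less RNA per cell cannot be told apart.

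None of the 8 tested genes passed the threshold of an adjusted p under 0.05 with an absolute log2 fold change over 1 in edgeR's quasi-likelihood test, which called 0.0892% of 14579 tested genes lower and 0% higher. Only Ngfr (-1.26) and Ntrk2 (2.62) had log2 fold changes of that size, so the others could not be called at any p. The lowest adjusted p of the 8 was 0.361 (edgeR). Of the 8, 7 had log2 fold changes below 0 (DSS+BV against DSS) and 1, Ntrk2, lay above 0. Of all 14579 tested genes, 7501 lay below 0. The median of the 8 was -0.59, and that of all tested genes was -0.01. Gdnf, Artn, Gfra1 and Ngfr had all DSS+BV mice below all DSS mice, a separation that 11.3% of all tested genes showed. None was higher in every DSS+BV mouse, against 6.37% of tested genes. At an unadjusted p under 0.05 there were 2 of the 8 lower, Gfra1 and Ngfr, where the share of all tested genes was 9.12% lower and 3.4% higher. DESeq2 called 1.78% of its genes lower and 0.291% higher, and none of the 9 was among them.

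**Figure D1:**
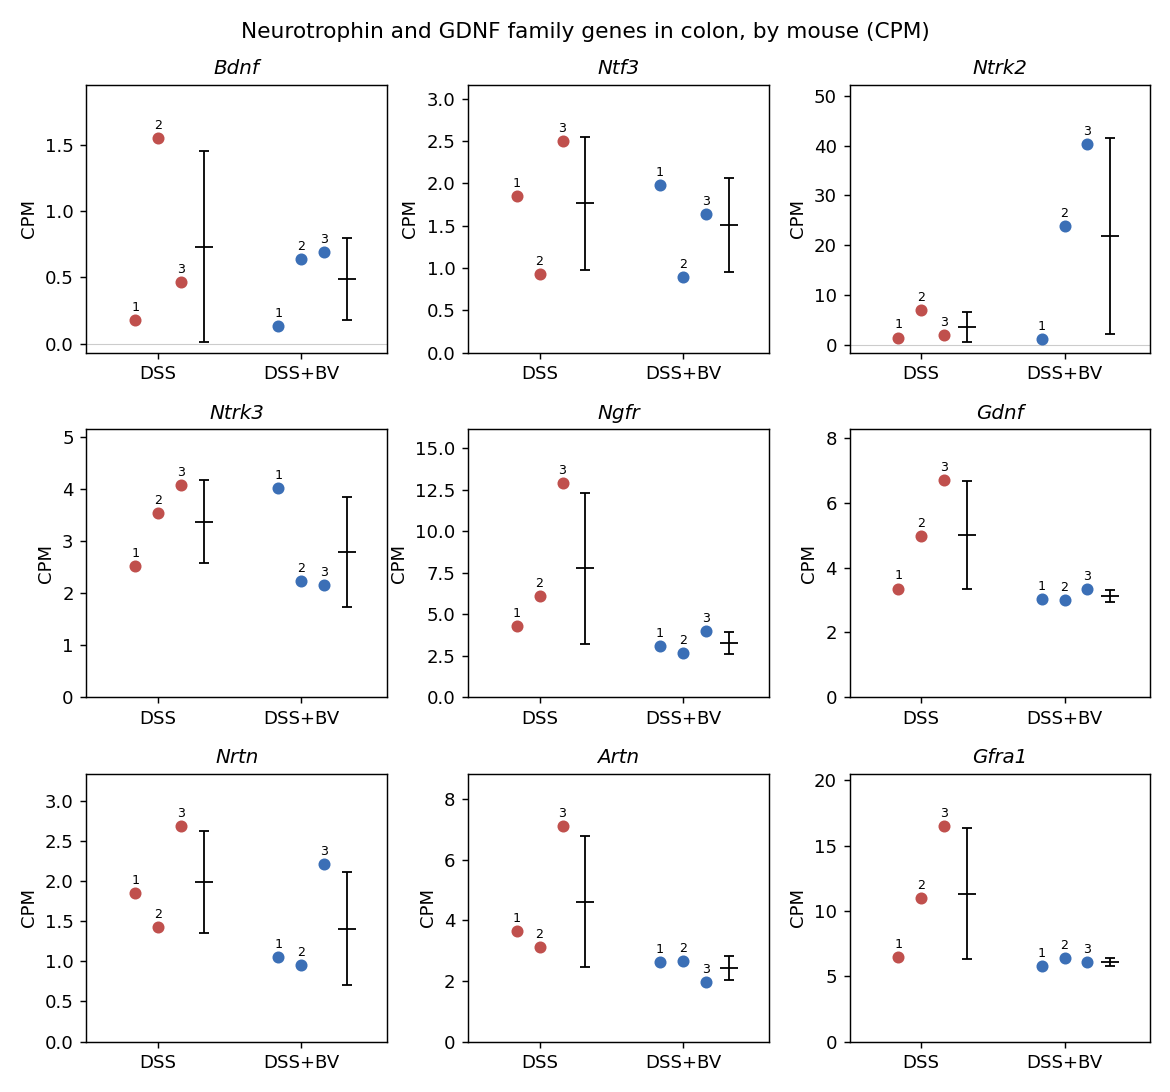
Level of each gene in CPM (vertical axes, linear, with a scale for each gene) in the 3 DSS mice (red) and the 3 DSS+BV mice (blue). Numbers beside the points are replicate numbers, and bars show the mean ± SD. In Gdnf, Artn, Gfra1 and Ngfr the blue points lie below all red points. In Ntrk2 the blue points run from 1.19 to 40.3 CPM.

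To show the DNA around the genes described next, the 150 bases before the most upstream start that RefSeq or GENCODE M21 annotates are printed for 3 of them from RefSeq sequence (build GRCm38.p6): Gdnf and Ngfr, which were lower in every DSS+BV mouse, and Ntrk2, which varied most. Capitals mark the GC box GGGCGG on either strand, a sequence bound by SP-family factors. The stretches are chr15:7809898-7810047 (plus strand) for Gdnf, chr11:95587736-95587885 (minus strand) for Ngfr and chr13:58806322-58806471 (plus strand) for Ntrk2. For Ngfr the most upstream start is that of GENCODE, a short way beyond the RefSeq start of the gene positions given here.
Gdnf: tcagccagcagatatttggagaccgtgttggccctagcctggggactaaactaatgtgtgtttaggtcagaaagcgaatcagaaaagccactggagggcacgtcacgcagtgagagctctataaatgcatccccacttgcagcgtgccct
Ngfr: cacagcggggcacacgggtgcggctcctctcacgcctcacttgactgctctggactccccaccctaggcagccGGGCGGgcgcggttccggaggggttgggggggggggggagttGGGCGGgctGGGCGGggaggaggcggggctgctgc
Ntrk2: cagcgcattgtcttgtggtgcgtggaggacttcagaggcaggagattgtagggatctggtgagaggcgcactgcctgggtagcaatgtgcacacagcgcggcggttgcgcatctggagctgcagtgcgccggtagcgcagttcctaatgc

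The Ngfr stretch held 3 GC boxes and was 76% G and C. The Gdnf stretch held 0 and was 52% G and C, and the Ntrk2 stretch held 0 at 60.7%. Of 32851 windows of the same length before RefSeq starts, 28.6% held the GC box. The letters TGANTCA, bound by AP-1, were in none of the 3 stretches and in 4.24% of all windows. These matches describe letters and not bound sites.

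Gdnf (Entrez gene 14573, chromosome 15, 7810048 to 7837580), the ligand that guides and maintains enteric neurons, was at 3.35, 4.97 and 6.70 CPM in DSS 1, 2 and 3. It was at 3.03, 2.99 and 3.35 CPM in DSS+BV 1, 2 and 3. The DSS+BV mice lay close together, and the highest of them was only just under the lowest DSS mouse. The means were 5.01 ± 1.67 and 3.13 ± 0.195 CPM (SD, n = 3 each). The log2 fold change was -0.68, with a standard error (SE) of 0.319 (edgeR adjusted p = 0.441), and the unadjusted 95% interval ran from -1.44 to 0.0824.

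Artn (Entrez gene 11876, chromosome 4, 117925908 to 117930795), the ligand of sensory and sympathetic neurons, was at 3.65, 3.11 and 7.10 CPM in the DSS mice. In the DSS+BV mice it was at 2.64, 2.68 and 1.96 CPM. DSS 3 stood above the other 5 mice, and the groups did not overlap. The log2 fold change was -0.93 (SE 0.393, edgeR adjusted p = 0.40).

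Nrtn (Entrez gene 18188, chromosome 17, 56751323 to 56757548), the preferred ligand of Gfra2, was at 1.86, 1.43 and 2.68 CPM in the DSS mice and at 1.06, 0.956 and 2.21 CPM in the DSS+BV mice. DSS+BV 3 lay above both DSS 1 and DSS 2, so the groups overlapped, and the log2 fold change was -0.50 (SE 0.459, edgeR adjusted p = 0.678), with an interval from -1.59 to 0.599.

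Gfra1 (Entrez gene 14585, chromosome 19, 58235581 to 58455946), the co-receptor that GDNF binds, was at 6.47, 11 and 16.5 CPM in the DSS mice. The DSS+BV mice had 5.80, 6.37 and 6.13 CPM. The spread among DSS+BV mice (SD 0.284 CPM) was small beside that among DSS mice (SD 5.04 CPM), and DSS 1 was just above the highest DSS+BV mouse. The log2 fold change was -0.89 (SE 0.353, edgeR adjusted p = 0.388), with an interval from -1.74 to -0.0502.

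Ret (Entrez gene 19713), the kinase through which Gfra1 signals, was also highest in DSS 3. It was at 11.9, 22.7 and 62.8 CPM in the DSS mice and at 8.31, 9.87 and 11.2 CPM in the DSS+BV mice, so the groups did not overlap. Its log2 fold change was -1.73 (SE 0.585, edgeR adjusted p = 0.349). The ratio of Gfra1 to Ret CPM was computed after their values were seen and not adjusted for length. It was 0.545, 0.485 and 0.263 for the DSS mice in order, and 0.698, 0.645 and 0.548 for the DSS+BV mice. DSS 3, with the most Ret, had the lowest ratio.

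Of the neurotrophin receptors, Ngfr (Entrez gene 18053, chromosome 11, 95568818 to 95587698) was at 4.31, 6.09 and 12.9 CPM in the DSS mice. It was at 3.10, 2.68 and 3.98 CPM in the DSS+BV mice, each below the lowest DSS mouse. Its log2 fold change, -1.26 (SE 0.450, edgeR adjusted p = 0.361), was the lowest of the 8, with an interval from -2.33 to -0.181. Ngfr is also a gene of enteric glia and of the follicular dendritic cells of lymphoid tissue. Cr2, which marks B cells and follicular dendritic cells, was at 18.1, 0.373 and 25.9 CPM in the DSS mice and at 33.5, 0.573 and 0.885 CPM in the DSS+BV mice. Its part in the Ngfr levels was not tested.

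Ntrk2 (Entrez gene 18212, chromosome 13, 58806472 to 59133970), which encodes TrkB, was at 1.5, 7.03 and 2.1 CPM in DSS 1, 2 and 3. In DSS+BV 1, 2 and 3 it was at 1.19, 23.8 and 40.3 CPM. The highest level was 34.0 times the lowest, the widest range of the 9 genes, and both extremes were DSS+BV mice. The means were 3.54 ± 3.03 and 21.8 ± 19.7 CPM (SD, n = 3 each). The log2 fold change of 2.62 had an SE of 1.15 and an interval from -0.133 to 5.38 (adjusted p = 0.416, edgeR). The groups overlapped, and the difference was not larger than the spread between mice.

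The 3 mice with the most Ntrk2 were DSS 2, DSS+BV 2 and DSS+BV 3, those with high Cdx2 and few B cell transcripts. Car1, a carbonic anhydrase of surface colonocytes, was between 825 and 1041 CPM in 4 mice, while DSS+BV 2 had 10453 CPM and DSS+BV 3 had 8702 CPM. Rtn4r, a receptor that partners Ngfr in neurons, was at 0.299, 2.98 and 0.815 CPM in the DSS mice and at 1.19, 3.06 and 7.40 CPM in the DSS+BV mice, again highest in the same 3. Cdx2, Car1 and Rtn4r were picked for this comparison after their values were seen. The part that these differences between libraries have in the Ntrk2 levels was not tested. The table gives 1 count per gene, so full-length TrkB and its truncated, kinase-free forms cannot be told apart.

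Ntrk3 (Entrez gene 18213, chromosome 7, 78179986 to 78581034), which encodes TrkC, varied least, with a highest level 1.90 times the lowest. It was at 2.51, 3.54 and 4.08 CPM in the DSS mice and at 4.02, 2.23 and 2.15 CPM in the DSS+BV mice. DSS+BV 1 lay among the upper DSS mice, and the log2 fold change was -0.27 (SE 0.369, edgeR adjusted p = 0.786, interval -1.15 to 0.609). Without DSS+BV 1 it was -0.61, and without DSS+BV 3 it was -0.11.

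Its ligand Ntf3 (Entrez gene 18205, chromosome 6, 126101412 to 126166772) was at 1.86, 0.933 and 2.5 CPM in the DSS mice and at 1.98, 0.892 and 1.64 CPM in the DSS+BV mice. Replicate 2 was the lowest in both groups. The log2 fold change was -0.23 (SE 0.489, edgeR adjusted p = 0.871), with an interval from -1.40 to 0.938, and it turned positive without DSS 3 (0.11) or without DSS+BV 2 (0.04).

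Bdnf (Entrez gene 12064, chromosome 2, 109674700 to 109727043), which encodes the brain neurotrophin bound by TrkB, fell just short of the filter. It was too low to test in the main fit. It had 3, 25 and 8 counts in the DSS mice and 2, 10 and 11 counts in the DSS+BV mice. The filter asks for 10 counts in a library of median size, here 0.62 CPM before TMM adjustment, in at least 3 libraries. DSS 2 and DSS+BV 3 passed it. DSS+BV 2, with 10 counts in a library above the median size, fell just short. DSS 2 alone held 25 of the 36 counts of its group (exact Poisson 95% interval of the sum 25.2 to 49.8), and the DSS+BV sum was 23 (14.6 to 34.5). These intervals cover counting error only. The intervals overlapped, and on CPM the exact two-sided permutation test gave p = 0.8, where 0.1 is the smallest that 3 against 3 mice allow. Without a filter, over 17897 genes, edgeR gave a log2 fold change of -0.55 (SE 0.90, adjusted p = 0.819). DESeq2 gave -0.56 (adjusted p = 0.88). A difference in colonic Bdnf was not detectable with these counts and this spread between mice. Replicates 2 and 3 of DSS+BV and replicate 2 of DSS held the most Bdnf, the same 3 mice that held the most Ntrk2, although 10 and 11 counts against 8 in DSS 3 are within counting error.

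**Figure D2:**
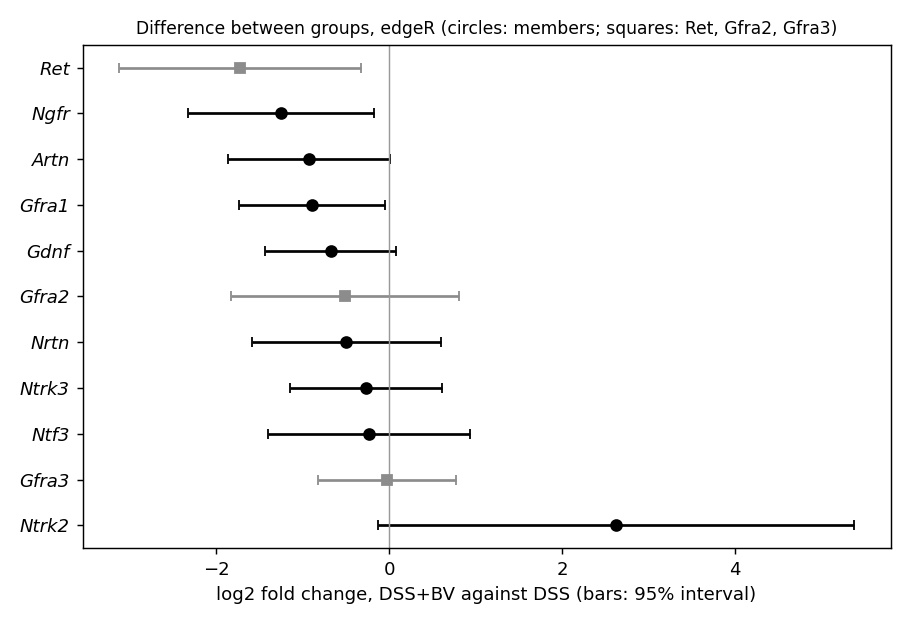
Log2 fold change of DSS+BV against DSS (horizontal axis) with unadjusted 95% intervals from edgeR for the 8 tested genes (black circles) and for Ret, Gfra2 and Gfra3 (grey squares). Ngfr (-1.26), Gfra1 (-0.89) and Ret (-1.73) have intervals below 0, and Ntrk2 (2.62) has the widest interval.

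Levels were compared between genes only per length, as CPM per kilobase of all annotated exons (GENCODE M21). In the DSS group, Ngfr (2.26 ± 1.32), Gfra1 (2.07 ± 0.921), Nrtn (1.94 ± 0.621) and Artn (1.92 ± 0.901) came first and did not differ beyond their spread (SD, n = 3). Gdnf (1.36) and Ntf3 (1.03) followed, and Ntrk2 (0.184), Bdnf (0.118) and Ntrk3 (0.112) were lowest. In the DSS+BV group Nrtn led at 1.38 ± 0.683, followed by Ntrk2 (1.13 ± 1.02), Gfra1 (1.11 ± 0.0519), Artn (1.01 ± 0.168), Ngfr (0.944 ± 0.194), Ntf3 (0.878 ± 0.325) and Gdnf (0.851 ± 0.0532). Ntrk3 (0.0928) and Bdnf (0.0785) were again lowest. With the length of the longest coding transcript instead, Gfra1 led in the DSS group and Ntrk2 in the DSS+BV group, and Bdnf and Ntrk3 stayed at the bottom of both. The rank of Ntrk3 rests on its long annotation, 30170 bases of exons or a transcript of 19703 bases. Undivided, the mean of Ntrk3 in the DSS group was 3.38 CPM, above Ntf3 (1.76) and Nrtn (1.99). The same limit holds for Ntrk2, with 19292 bases of exons or a transcript of 8744 bases. Its undivided mean in the DSS group was 3.54 CPM. Which transcripts of either gene were present cannot be told from 1 count per gene.

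DSS 3 had the highest level of 7 of the 9 genes, and DSS+BV mice had the lowest level of all 9. The same mouse stood out in genes of enteric neurons, but not in these alone. Its sums were also the highest for smooth muscle (4643), interstitial cells of Cajal (318), endothelium (437), B cells (741), macrophages (1106) and neutrophils (1049 CPM). The fibroblast, mast cell, epithelial and full glial sums were highest in other mice. The summed level of 15 neuronal genes was 203, 234 and 653 CPM in the DSS mice and 94.3, 89.2 and 84.8 CPM in the DSS+BV mice. All 15 had log2 fold changes below 0, 8 did not overlap between the groups, and 0 were called by edgeR (13 at an unadjusted p under 0.05) against 8 by DESeq2. Over all genes, the shares were 11.3% lower without overlap, 9.12% lower at an unadjusted p under 0.05 and 1.78% called lower by DESeq2. Elavl4, an RNA-binding protein of neurons, was at 2.87, 7.21 and 20.7 CPM in the DSS mice and at 1.78, 2.04 and 2.47 CPM in the DSS+BV mice. None of the 16 listed neuronal genes was at 0 in any library, and only Phox2a fell below the filter.

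Of 10 tested glial genes, 8 had log2 fold changes below 0, 5 were lower without overlap and 5 were lower at an unadjusted p under 0.05. Their log2 fold changes ran from -2.00 to 0.71. Of these glial genes, 0 were called by edgeR and 2 were called lower by DESeq2. Over all genes, for this list and those below, 11.3% were lower without overlap and 9.12% at an unadjusted p under 0.05. The shares called lower were 0.0892% by edgeR and 1.78% by DESeq2. The sum of the 10 lay between 468 and 697 CPM in the DSS group and between 411 and 592 CPM in the DSS+BV group. Most of it came from Erbb3 and L1cam, which epithelium or neurons also express. Without those 2 genes the sum was 103 to 189 CPM against 72.3 to 83.3 CPM. Sox10, the transcription factor that defines glia, was at 4.19, 5.53 and 8.73 CPM in the DSS mice and at 3.50, 2.74 and 2.72 CPM in the DSS+BV mice. The smooth muscle sum overlapped between the groups (3705 to 4643 against 2854 to 4449 CPM), and the fibroblast sum did not (3989 to 4246 against 1461 to 2128 CPM). The epithelial sum was higher in the DSS+BV group (12695 to 21512 against 22228 to 41478 CPM), with DSS 2 close under DSS+BV 1. Part of it was Car1, at 10453 CPM in DSS+BV 2 and 8702 CPM in DSS+BV 3. All 12 epithelial genes (median 0.52) were above 0, 6 without overlap and 5 at an unadjusted p under 0.05. Of these, 0 were called by edgeR and 1 was called higher by DESeq2. Over all genes, 6.37% were higher without overlap, 3.4% at that p and 0.291% by DESeq2. Neutrophil genes differed most of the lists, with 9 of 9 below 0, a median log2 fold change of -3.78 and 5 called lower by edgeR (8 by DESeq2). Their sum overlapped between the groups (203 to 1049 against 30.4 to 326.5 CPM). All 10 fibroblast genes (median -0.90) were below 0, 5 without overlap and 7 at an unadjusted p under 0.05. Of the fibroblast genes, 0 were called by edgeR and 4 were called lower by DESeq2. All 9 macrophage genes (median -0.89) and all 8 endothelial genes (median -0.65) were also below 0, and 0 of either list were called by edgeR, with 2 and 3 at an unadjusted p under 0.05. DESeq2 called 2 macrophage and 0 endothelial genes lower. The part of cell type content in the levels of Gdnf, Artn, Gfra1 and Ngfr was not tested.

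As a description, each tested gene was also set against the mean log2 CPM of the neuronal list in the same library. That mean was itself lower in the DSS+BV group, by a difference of -1.55, so any gene that differed by less comes out above 0 on this scale. Gdnf was at -0.83, -1.13 and -1.95 in the DSS mice and at -0.26, -0.44 and -0.40 in the DSS+BV mice, a difference in means of 0.94. The 8 differences lay between 0.45 for Ngfr and 3.42 for Ntrk2. Against the glial list, which differed by -0.65, the differences were 0.04 for Gdnf, 0.14 for Nrtn, 0.36 for Ntrk3, 0.47 for Ntf3 and 2.53 for Ntrk2. Those of Gfra1, Artn and Ngfr were -0.13, -0.17 and -0.44. This glial list holds Erbb3 and L1cam, and without them its own difference was -0.88. The small negative values of Gfra1 and Artn thus rest on which glial genes are listed.

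**Figure D3:**
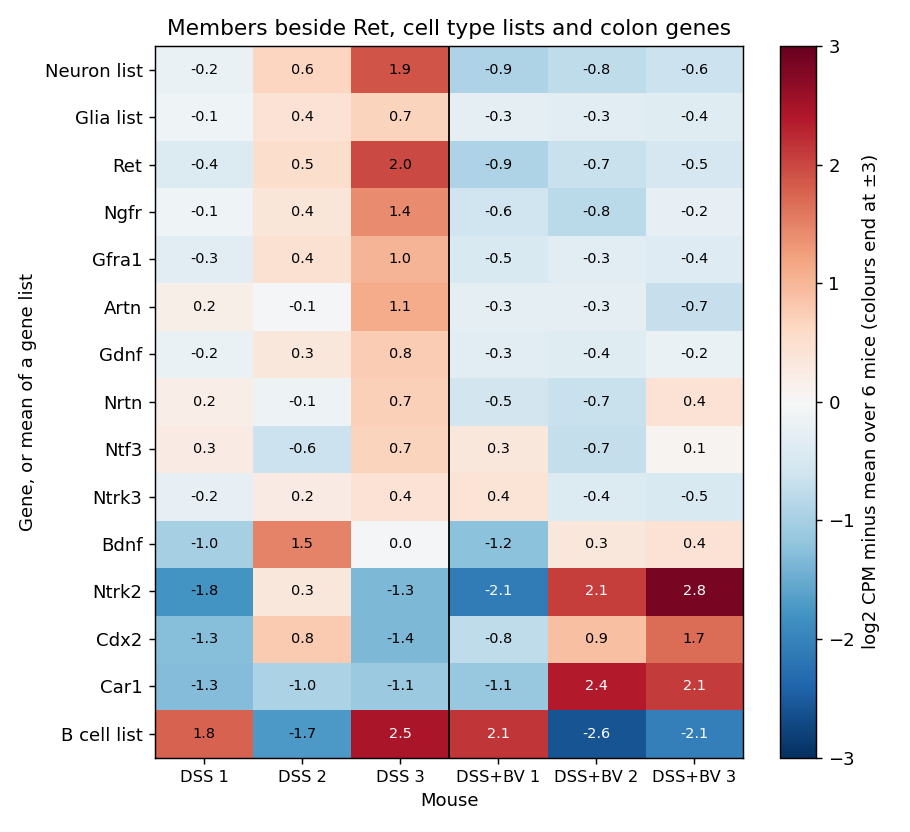
Log2 CPM of each gene, or the mean over a gene list, minus its mean over the 6 mice (columns); numbers in the cells give this difference, and the colour scale ends at ±3. The neuron list, Ret, Ngfr, Gfra1, Artn and Gdnf are highest in DSS 3, while Ntrk2 and Cdx2 are highest in DSS 2, DSS+BV 2 and DSS+BV 3, where the B cell list is lowest.

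The genes with patterns most like those of Ntrk2, Gfra1 and Ngfr, which had the highest mean CPM (not adjusted for length), were named by the smallest root mean square difference of mean-centred log2 CPM over the 6 libraries. For Gfra1 these were Prune2 (0.0810), Efna5 (0.0864), an ephrin that guides axons, and Gper1 (0.0873). For Ngfr they were Neurl1a (0.115), Rab6b (0.116) and Syp (0.118), the last being synaptophysin of synaptic vesicles. For Ntrk2 they were Amn (0.388), Slc47a1 (0.461) and Grin3a (0.502). Amn, a membrane partner of the endocytic receptor cubilin, was at 0.180, 1.12 and 0.408 CPM in the DSS mice and at 0.396, 4.97 and 10.2 CPM in the DSS+BV mice. Slc47a1 was near 0 in DSS 1, DSS 3 and DSS+BV 1, at 0.0599, 0.0582 and 0.0660 CPM. Grin3a was at 0.838, 3.29 and 2.27 CPM in the DSS mice and at 0.857, 8.41 and 21.6 CPM in the DSS+BV mice. All these matches were picked from 14579 genes over 6 libraries with no background distance. How unusual such closeness is was not tested.

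Among other genes of neurotrophin signalling, 20 of 24 in the table were tested, 12 had log2 fold changes below 0, and the median was -0.17. Of all 14579 tested genes, 7501 lay below 0, and 9.12% were lower at an unadjusted p under 0.05. In 4 of the 20 every DSS+BV mouse was lower and in 1 every one was higher, against 11.3% and 6.37% of all tested genes. None of the 20 was called by edgeR, with 4 lower and 0 higher at an unadjusted p under 0.05, and 1 was called by DESeq2. That gene was Plat, tissue plasminogen activator, which forms the plasmin that can cleave pro-BDNF. Plat was at 27.7, 20.6 and 91.8 CPM in the DSS mice and at 10.4, 10.4 and 8.98 CPM in the DSS+BV mice. Its log2 fold change was -2.23 (SE 0.573, adjusted p = 0.283 with edgeR and 0.00468 with DESeq2). Without DSS 3 the edgeR value was -1.28.

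Of the proteases that cleave pro-neurotrophins, Furin was lower in every DSS+BV mouse (98.6 ± 6.17 against 73.9 ± 7.43 CPM, SD, n = 3 each) and Pcsk6 was higher in every one (22.0 ± 9.39 against 32 ± 4.92 CPM). The log2 fold changes were -0.42 and 0.54, neither past the threshold (adjusted p = 0.329 and 0.56, edgeR). That of Pcsk6 was 0.24 without DSS 2. Pcsk5 and Pcsk7, of the same list, overlapped between the groups, at 0.61 and 0.35 (adjusted p = 0.714 and 0.606, edgeR). Sorcs1, a receptor of the sortilin family, and Bex3, an adaptor that binds Ngfr, were also lower in every DSS+BV mouse, at -1.37 and -0.55 (adjusted p = 0.323 and 0.334, edgeR).

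Ntf5, a further TrkB ligand, had 1, 1 and 4 counts in the DSS mice and 2, 5 and 11 in the DSS+BV mice and was not tested. Its highest count was in DSS+BV 3, the mouse with the most Ntrk2.

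Among other genes of the GDNF system, 10 of 14 in the table were tested, 8 had log2 fold changes below 0, and the median was -0.57. None was called by edgeR or DESeq2, and 2 were lower at an unadjusted p under 0.05 with 0 higher (9.12% and 3.4% of all tested genes). Ret, Ncam1 and Grb10 were lower in every DSS+BV mouse, as were 11.3% of all tested genes. Ncam1, an adhesion molecule that also serves as a GDNF receptor, was at 14, 17.0 and 27.7 CPM in the DSS mice and at 13.7, 12.1 and 12.3 CPM in the DSS+BV mice (log2 fold change -0.62, adjusted p = 0.427, edgeR). Grb10, an adaptor of receptor kinases, had means of 35.2 ± 5.25 and 20.5 ± 4.07 CPM (SD, n = 3 each), and its log2 fold change of -0.78 did not pass the threshold (edgeR adjusted p = 0.289). The co-receptors Gfra2, which binds neurturin, and Gfra3, which binds artemin, had log2 fold changes of -0.51 and -0.03 (adjusted p = 0.727 and 0.983, edgeR). Both overlapped between the groups.

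Leaving out DSS 3 brought the log2 fold changes to -0.41 for Gdnf, -0.48 for Artn, -0.52 for Gfra1 and -0.68 for Ngfr, from -0.68, -0.93, -0.89 and -1.26 with all 6 mice. That of Ret went from -1.73 to -0.82 and that of Ncam1 from -0.62 to -0.28. DSS 1 and DSS 2 also lay above each DSS+BV mouse in these 6 genes, but the margins were small. For Gdnf, Artn and Gfra1, the lowest DSS mouse had 56, 50 and 108 counts. The highest DSS+BV mouse by CPM had 53, 42 and 100. For Ngfr, Ret and Ncam1 the counts were 72, 198 and 233 against 63, 177 and 208. The lowest DSS mouse was DSS 2 for Artn and DSS 1 otherwise. These gaps are within counting error, so the lack of overlap remains uncertain with or without DSS 3.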

How the data were processed

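Colon RNA of 3 DSS and 3 DSS+BV mice was sequenced on a DNBSEQ-T7 instrument. The authors deposited expected counts per gene from RSEM, unscaled between libraries. The submitters' processing notes name HISAT2 2.1.0, Bowtie2 2.2.5, RSEM 1.2.8 and the build GRCm38.p6, and the annotation release is not given in the sources used here. Groups and replicate numbers came from the sample titles. Nothing says whether the numbers pair mice.

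Expected counts were rounded to whole numbers (those of the 9 genes already were), filtered with filterByExpr (minimum count 10, minimum total 15), scaled with TMM factors and fitted in edgeR 4.0.16 under R 4.3.3. Its quasi-likelihood test was used, and p-values were adjusted by Benjamini-Hochberg across the 14579 genes kept. Standard errors and intervals came from the same fit. Log2 CPM used a prior count of 2. Alternatives were DESeq2 1.42.0, size factors by RLE or upper quartile, no filter or a stricter one, a block on the replicate number, and each library left out in turn. The scripts were tested on simulated data. Positions came from RefSeq and exon lengths from GENCODE M21, both of GRCm38. Figures used matplotlib 3.10.9.

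The genes, lists and tests were chosen with earlier results of these data known. Genes named besides the 9 include Ret, Ntf5, Gfra2, Gfra3, every tested pathway gene whose groups did not overlap and the 3 closest patterns to each of the 3 tested members with the highest mean CPM. Rtn4r, Pcsk5, Pcsk7, Cdx2, Car1, Cr2, Elavl4, Sox10, Epcam, Erbb3, L1cam and Phox2a were added as context after their values were seen. Some genes of the lists are not reported here.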

Additional observations from a re-analysis of the deposited data

How the results depend on the processing

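None of the 9 genes was called with edgeR under any alternative tried, or with DESeq2. The other pathway genes gave 0 calls in every edgeR fit and 1 with DESeq2. Over all genes, edgeR called 13 lower and 0 higher, and DESeq2 called 281 lower and 46 higher. With 1 library left out, the edgeR count ran from 0 to 3 for lower calls and from 0 to 4 for higher calls, with fewer mice to test. With the replicate number as a block it called 0 lower genes, and same-numbered mice deviated together for replicates 1 and 2 (r = 0.27 and 0.25, across genes) but not for replicate 3 (r = -0.30), so the numbers were not taken as pairs. Of the 6 libraries, 2 correlated best with their own number. The block changed no call of the 9 genes.

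The log2 fold change of Ntf3 ran from -0.52 without DSS 2 to 0.11 without DSS 3, and was 0.04 without DSS+BV 2. That of Ntrk2 ran from 1.83 without DSS+BV 3 to 3.60 without DSS 2, and that of Nrtn from -0.98 without DSS+BV 3 to -0.22 without DSS 3. The others kept their direction under all alternatives tried. With the glial list as reference instead of the neuronal list, Artn, Gfra1 and Ngfr turned to -0.17, -0.13 and -0.44. That list holds Erbb3 and L1cam, and the signs of Artn and Gfra1 rest on which glial genes are listed. The cause was not tested. Bdnf had 2 to 25 counts and Ntf5 1 to 11 counts per library, too few to pass the filter, which Bdnf missed narrowly. With 3 mice a group, a difference of the size seen in Gdnf or Artn did not pass adjustment over all genes. With all 6 mice, the log2 fold changes of both (-0.68 and -0.93) also fell short of the limit of 1. So did those of Gfra1, Nrtn, Ntrk3 and Ntf3, so none of these could be called whatever its p.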
